A study of Mus musculus with 6 samples.

Results

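The mouse Ugt1a cluster on chromosome 1 encodes 9 UDP-glucuronosyltransferases, Ugt1a10, Ugt1a9, Ugt1a8, Ugt1a7c, Ugt1a6b, Ugt1a6a, Ugt1a5, Ugt1a2 and Ugt1a1, in that order along the plus strand. The 9 genes, of 24223 gene names in the variant lists, were taken by name, with every annotation except intergenic, and were selected on measured values: the depth and the recurrence over animals of the calls in them. Their calls, depth and recurrence are therefore given as a description, and tests are kept to marrow against ear. A call annotated to at least 1 member was counted as a Ugt1a site, which gave 250 sites, 229 of them single nucleotide changes.

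Exomes had been captured from whole bone marrow and from ear of 3 C57BL/6 mice, named 54 (male), 108 (male) and 136 (female), which gave 3 marrow and 3 ear samples. All 3 mice were heterozygous for Srsf2 P95H, a splicing factor mutation switched on by tamoxifen, and were killed when moribund, 50 to 60 weeks after tamoxifen; the labels give an age of 50 to 60 weeks, and mice without the mutation are not analysed here. The sample labels give R26CreERT2 for all 3 mice, whereas the study's design text gives R26-CreERT2 for 2 mice and hScl-CreERT with R26eYFP for 1, without saying which; hScl-CreERT is directed to blood stem cells. R26-CreERT2 is expressed in most tissues, so the ear of such a mouse had been exposed to the recombinase too. The data are lists of called sites: a site that is not in a list was not called there, which does not show that its variant reads were absent.

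UDP-glucuronosyltransferases attach glucuronic acid to small molecules so that these can be excreted in bile and urine. Each Ugt1a gene has a first exon and promoter of its own, which encodes the part of the enzyme that binds the substrate, and splices it to 4 exons that all members use and that encode the part that binds UDP-glucuronic acid. Ugt1a1 is the enzyme that conjugates bilirubin, in liver above all, and Ugt1a6 enzymes conjugate simple phenols. A change in the shared exons therefore alters all members at once, and a change in a first exon alters 1 enzyme.

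The window of 250 bases before the Ugt1a1 start is printed because called changes lay there in every sample. It is chr1:88211709-88211958 on the plus strand, from RefSeq (GRCm38.p6), 5′ to 3′, and capitals mark the 7 bases at which a single nucleotide change was called in at least 1 sample.
Ugt1a1 promoter: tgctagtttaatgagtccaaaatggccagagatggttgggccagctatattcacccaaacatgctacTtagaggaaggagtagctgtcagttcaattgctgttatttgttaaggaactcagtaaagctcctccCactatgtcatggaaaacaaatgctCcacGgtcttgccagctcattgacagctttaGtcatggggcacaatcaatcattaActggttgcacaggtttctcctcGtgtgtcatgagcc
Counted from 1 at the 5′ end of this window, G190A, A214C and G237A were called in all 6 samples, C159T and G163A in 5, C134T in 2 and T68C in 1. The share of variant reads was 74.8 to 84.6% for G190A, 23.8 to 35.7% for A214C and 74.8 to 83.3% for G237A. A length change at position 67 was also called in all 6 samples. The letters GTTAAT, part of the site that the liver factor HNF1 binds, were searched on both strands and occurred once, on the minus strand at positions 210 to 215, and A214C lies inside them. They occur in 6.43% of 32851 mouse promoters, and the match is a description of letters only. The letters GCGTG, the core bound by the Ah receptor, and TATAAA were not in the window. Promoter windows were matched for 8 of the 9 members: the Ugt1a1 window held 8 called sites, those of Ugt1a10 and Ugt1a5 held 1 each, called in 1 sample, and 5 held none.

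The 250 sites fell into 3 stretches, drawn after the values were seen. Before the Ugt1a1 stretch lay 103 sites, between positions 88055163 and 88192438 of chromosome 1 (GRCm38, as are all positions here). The Ugt1a1 stretch, in which every site is annotated to all 9 members, held 136 sites between 88211688 and 88218833, that is, the Ugt1a1 promoter and first exon and the 4 shared exons with their introns. A further 11 sites lay beyond the cluster's end, between 88224572 and 88224927, and are annotated as downstream of Ugt1a7c and Ugt1a6a.

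**Figure D1:**
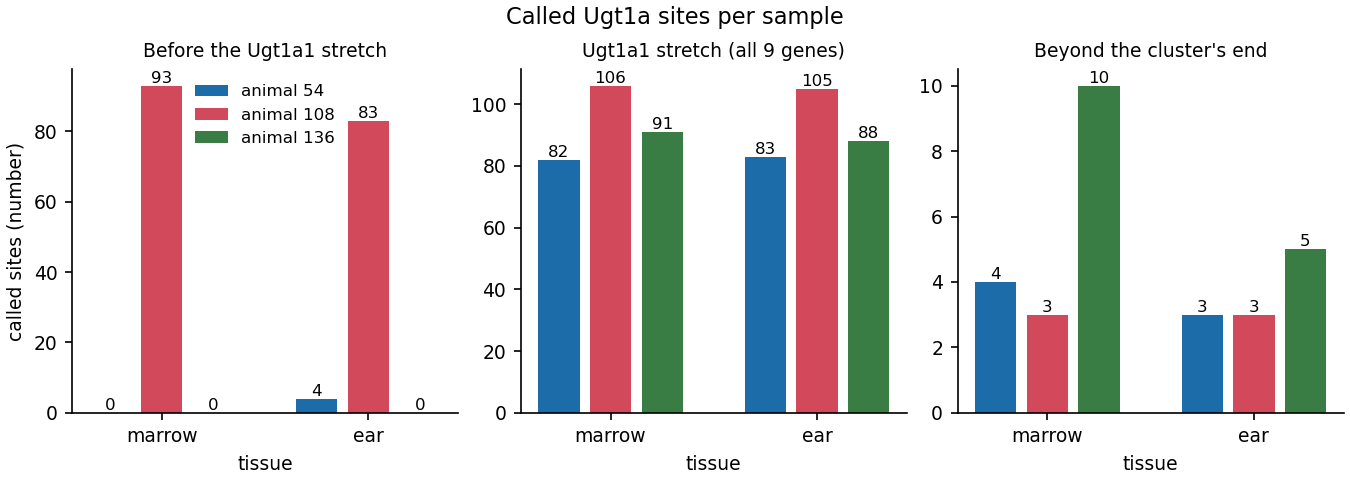
Number of called Ugt1a sites (vertical axis) in marrow and ear of each animal, in the 3 stretches; each bar is 1 sample. Animal 108 has 93 sites in marrow and 83 in ear before the Ugt1a1 stretch, where the other samples have 0 to 4, while all samples have 82 to 106 in the Ugt1a1 stretch.

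Before the Ugt1a1 stretch nearly all sites were those of 1 animal. The marrows of mice 54, 108 and 136 had 0, 93 and 0 sites there, and their ears 4, 83 and 0; values of the 3 mice follow this order throughout. Of the 103 sites, 99 were called in animal 108 alone, 77 of them in both its tissues. Over the whole series 41.4% of the 177834 sites were called in that mouse alone, and its marrow list was the longest, with 79759 sites against 43259 and 26602 in the marrows of mice 54 and 136. Nearby genes outside the cluster had the same order, such as Usp40, a ubiquitin protease, with 1, 37 and 3 sites in the marrows and 6, 36 and 1 in the ears. At the Ugt1a sites before the Ugt1a1 stretch, the median share of variant reads in animal 108 was 50.8% in marrow and 48.5% in ear. There, 69 of 93 marrow sites and 69 of 83 ear sites lay between 40 and 60%. Median depth at these sites was 103 reads in marrow and 124 in ear, which was 1.10 and 1.35 times the median at all coding sites of the same list. Median mapping quality, the aligner's phred-scaled confidence in a read's position, was 33 in marrow and 32 in ear, against 41 at all sites of both lists.

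The first exons of 6 genes carried coding changes in animal 108 and in neither other animal. Ugt1a7c had the most, with 19 coding sites, 8 of which change an amino acid (missense) and 11 of which do not (synonymous), and Ugt1a6a had 9, of which 6 were missense. Ugt1a9 and Ugt1a8 had 2 coding sites each and Ugt1a10 and Ugt1a5 had 1 each. The SAMtools lists held no coding change in the first exons of Ugt1a6b and Ugt1a2. In the Ugt1a7c first exon the share of variant reads spanned 45.4 to 56.9% at 176 to 701 reads. The missense change A229V of Ugt1a7c, for example, had 294 of 616 reads in marrow (47.7%) and 309 of 626 reads in ear (49.4%). In the Ugt1a6a first exon the shares spanned 37.4 to 53.8%, with mapping qualities of 26 to 33. F122C of Ugt1a6a had 108 of 232 reads in marrow (46.6%) and 46 of 123 reads in ear (37.4%). Ugt1a6a and Ugt1a6b are close paralogues, so placing short reads between their first exons is uncertain; its part in these shares was not tested.

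**Figure D2:**
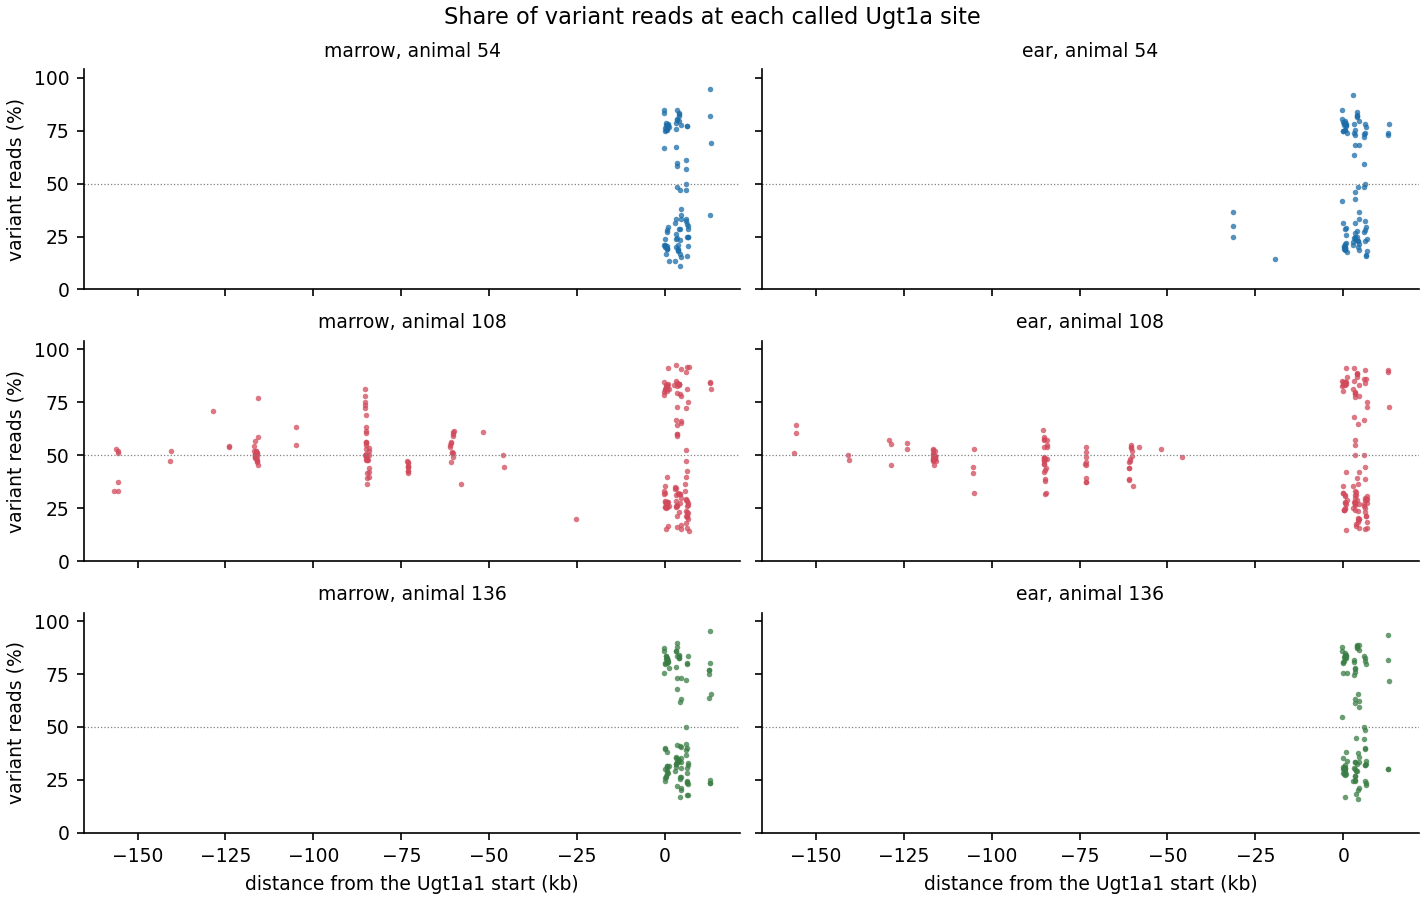
Share of variant reads (vertical axis, percent) at each called Ugt1a site against distance from the Ugt1a1 start (horizontal axis, kb), marrow left and ear right, with 1 row per animal and 1 point per site; the dotted line is 50%. In animal 108 the sites before the start gather near 50%, and from the start on all 6 samples show a low and a high band, with few sites between. For sites called in all 6 samples, medians per sample were 24.1 to 31.6% where all lay below 50% and 77.5 to 84.5% where all lay above.

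In the Ugt1a1 stretch the same sites were called in animal after animal. The 3 marrows had 82, 106 and 91 sites, and the 3 ears 83, 105 and 88. Of the 136 sites, 84 (61.8%) were called in all 3 animals and 57 (41.9%) in all 6 samples, against 6.19% and 2.63% of the 177834 sites of the whole series. All 9 members share these sites, so their counts are 1 observation and not 9.

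Depth at these sites was above the median of coding sites in every list. The median was 216.5, 334 and 375 reads in the marrows, and 413, 276 and 282 reads in the ears. That was 2.71, 3.55 and 5.51 times the median coding depth of the same list in the marrows, and 3.62, 3 and 6.27 times in the ears. The highest site reached 2583 reads, in ear of animal 108. Over 1000 reads covered 9, 25 and 24 sites of the marrows and 24, 23 and 17 of the ears. The median mapping quality of the stretch was 40 in each marrow sample, and 40, 40 and 39 in ear, where all sites of the lists had medians of 40 or 41. Sites beyond the cluster's end differed in this, with median mapping qualities of 24, 25 and 25.5 in marrow and 26, 26 and 28 in ear.

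**Figure D3:**
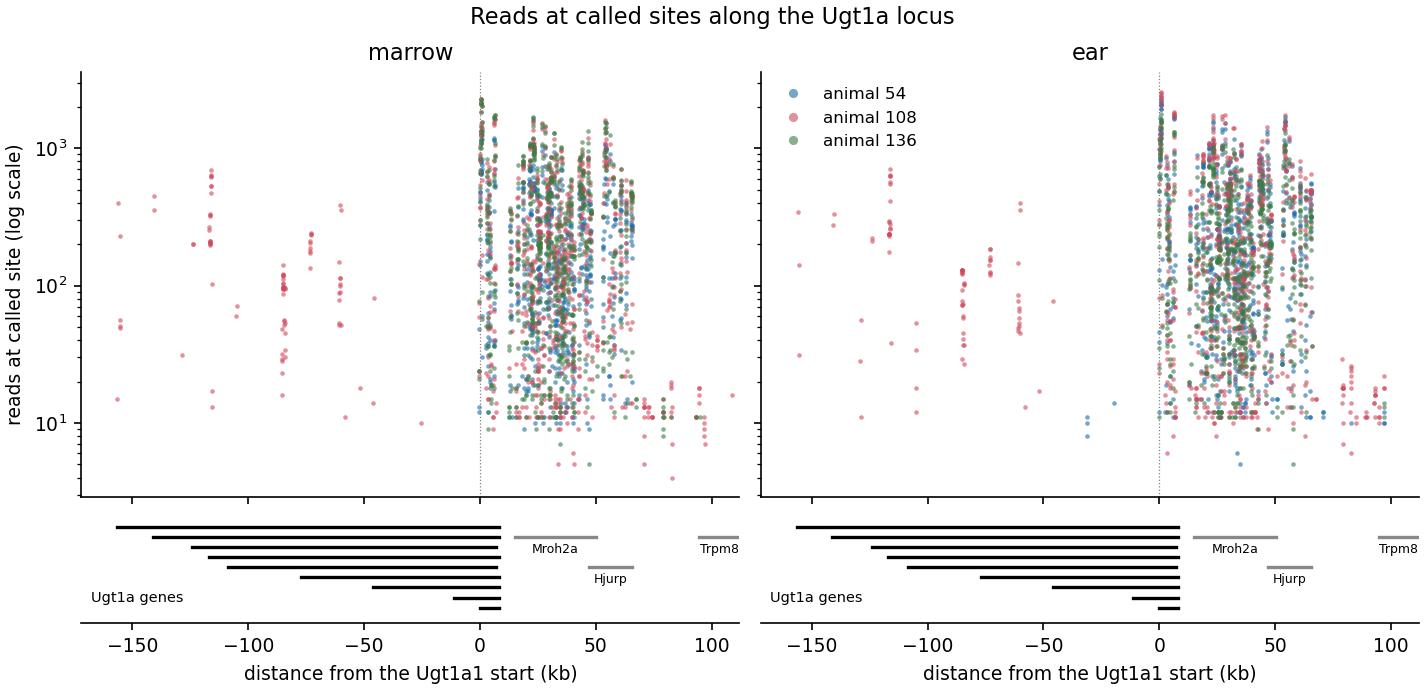
Reads at each called site (log axis) against distance from the Ugt1a1 start (kb), marrow left and ear right, with animals in colour and gene spans as lines below (the 9 Ugt1a genes in black, Mroh2a, Hjurp and the first part of Trpm8 in grey). Sites over 1000 reads lie between 0.1 and 56.1 kb from the Ugt1a1 start, within the stretch that ends with Hjurp; beyond Hjurp the median was 11.5 to 20 reads.

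The deep, recurrent sites did not stop at the cluster. Between the ends of Ugt1a1 and Hjurp, 57.6 kb that hold Mroh2a, a HEAT repeat gene, and Hjurp, the chaperone of the centromeric histone CENP-A, the median was 131, 175 and 182 reads in the marrows and 203, 167 and 147 in the ears, with 10 to 12.3 sites per kb in marrow and 10.9 to 11.7 in ear. Mroh2a had 859 sites, 368 of them in all 6 samples, and Hjurp had 249, of which 86 were in all 6 samples. The spans of these genes overlap, so a site can count for both. From the end of Hjurp to the end of Trpm8, the channel that senses cold, there were 1, 95 and 16 sites in marrow and 15, 91 and 7 in ear, with medians of 20, 18 and 11.5 reads in marrow and 12, 18 and 14 in ear. On the other side of the stretch, Dnajb3, which lies within the introns of most members, had no called site. In the chromosome 1 windows that hold the cluster, 88 to 89 Mb had 663, 1065 and 731 sites in marrow and 780, 1001 and 725 in ear, whereas 86 to 87 Mb had 2, 139 and 13 in marrow and 22, 102 and 5 in ear.

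The Ugt1a1 first exon held 27 coding sites, 17 missense and 10 synonymous, of which 17 were called in all 6 samples, at 432 to 2583 reads. It contrasts in recurrence with the other first exons, since 25, 24 and 23 of its sites were called in the 3 mice. Of its missense changes, 10 were called in every sample. Among these 10, 7 (R31K, G47V, S106P, H131Y, K176T, S183L and Q247K) had 75.3 to 85.1% variant reads, and the other 3, H28L, F155S and Y232F, had 19.9 to 31.5%. G47V stood at 77.5, 83.3 and 83.6% in the marrows and at 77.7, 84.1 and 82.9% in the ears. H28L had 19.9, 25.6 and 24.5% in marrow and 19.9, 24.3 and 30.3% in ear. At G47V and H28L both animals other than 54 lay above it in both tissues, whereas at Y232F animal 54 was the highest and at F155S it was not the lowest in marrow.

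The shared exons held fewer coding sites: 2 in exon 2, none in exon 3, 6 in exon 4 and 9 in exon 5, numbered as in the Ugt1a1 transcript. T334M of exon 2 had 33.3, 34.6 and 32.4% variant reads in marrow and 31.6, 27.7 and 27.0% in ear. R444S of exon 5 had 77.2, 81.4 and 80.3% in marrow and 78.1, 84.2 and 82.4% in ear. R477C of exon 5 had 30.9, 42.5 and 40% in the marrows and 28.2, 44.5 and 40.2% in the ears, at 1150 to 1732 reads. Animal 54 was the lowest at R444S and R477C in both tissues. H475L, P478L, Y488F, H489Q and G515D of exon 5 were each called in 5 of 6 samples, with median shares of 17.8 to 29.0%, and A403T, R405H and R409P of exon 4 in 5 of 6 samples with 19.4 to 25.4%.

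Of the 250 sites, 3 carried an annotation of high impact. The change at 88215884 lies in the splice donor of intron 3 of all 9 members, and had 81.7, 83.7 and 84% variant reads in the marrows and 82.3, 88.8 and 87.1% in ear, at 420 to 734 reads. The change at 88216213 reads as P389L in the Ugt1a1 transcript and as R131* in 1 other transcript, of Ugt1a7c, and had 47.2, 79.0 and 61.6% in marrow and 48.2, 64.9 and 65.4% in ear. A frameshift at 88216160, I372fs, was called in ear of animal 108 alone, with 36 of 152 reads (23.7%). Animal 54 had the lowest share in both tissues at 88215884 and at 88216213, by 1.36 and 13.4 percentage points.

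**Figure D4:**
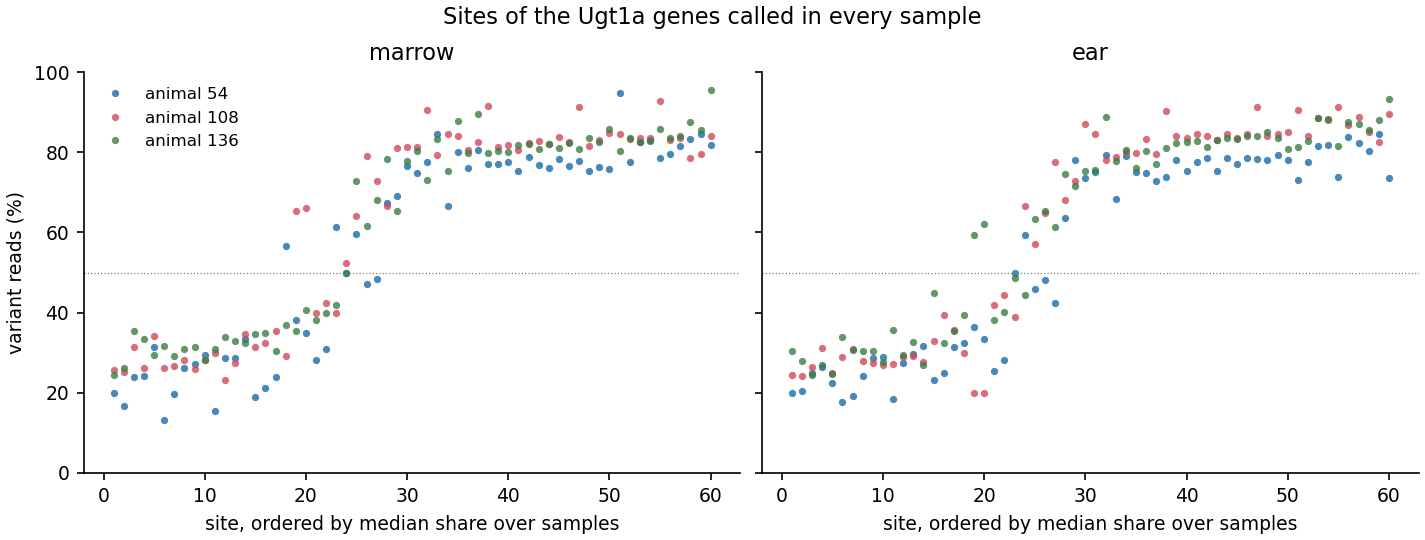
Share of variant reads (vertical axis, percent) at the 60 Ugt1a sites called in all 6 samples, ordered by their median (horizontal axis), marrow left and ear right, with animals in colour. The points form a low and a high plateau, and animal 54 often lies lowest.

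Sites called in every sample formed a low and a high class. Of 60 such sites, 19 were below 50% in all 6 samples, with a median of 28.7% (range 13.3 to 44.8%), 33 were above 50% in all 6, with a median of 81.6% (63.5 to 95.5%), and 8 were mixed. Over the whole series, 1170 of the 4679 sites called in all 6 samples were below 50% in all 6, 1288 above and 2221 mixed. The low class of Ugt1a sites had medians of 24.1, 28.2 and 31.6% in the marrows and 24.9, 28.8 and 30.5% in the ears. The high class had medians of 77.5, 82.9 and 82.2% in marrow and 78.1, 84.5 and 82.8% in ear. No Ugt1a site was above 95% in all 6 samples, whereas 500 of the 4679 sites of the whole series that were called in all 6 samples were (10.7%). In the Ugt1a1 stretch 5.49 to 8.54% of marrow sites and 6.67 to 8.43% of ear sites lay between 40 and 60%. Over all sites of the lists it was 25.8 to 49.0% in marrow and 25.1 to 47.6% in ear. Over coding sites alone it was 38.9 to 67.5% and 35.7 to 65.9%. The adjoining stretch to the end of Hjurp had few sites between 40 and 60% too, at 9.31 to 11.1% in marrow and 9.67 to 11.6% in ear.

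The level of variant reads followed the animal at many of these sites. Both tissues of animal 54 were below the 4 other samples at 31 of 60 sites (51.7%), against 10.6% of all sites called in all 6 samples. Both tissues of animal 108 were above the others at 12 sites (20%), against 8.31%, and both tissues of animal 136 at 12 sites (20%), against 7.95%. In the opposite directions, animal 54 was above at 2 sites (5.45% of all sites), animal 108 below at 3 (6.45%) and animal 136 below at 0 (4.68%). The widest gap was at 88216213, where animal 54 lay 13.4 percentage points below the next sample, and at V212V it lay 10 points below, at 1336 to 2503 reads. At 88218089, in intron 4, animal 108 lay 9.27 points above, with 91.5% in marrow and 90.4% in ear. Neighbouring sites share reads, so the sites are not independent. The shares are also set at unlike depth, with a median of 390 reads at the 60 sites and 55 at all 4679. Counting error is smaller at deep sites, and the part of depth in these shares was not tested. Across the 60 sites Pearson's r was 0.932 to 0.967 between the 2 tissues of an animal and 0.922 to 0.970 between samples of different animals, over sites that share libraries.

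Marrow was then set against ear within animals, which asks whether marrow, the diseased tissue, differs from matched ear. Over all stretches the marrows had 86, 202 and 101 Ugt1a sites and the ears 90, 191 and 93, so that log2 ratios averaged 0.04 ± 0.10 (SD over 3 mice; p = 0.5, two-sided, from an exact sign-flip test of the pairs), and 3 pairs cannot give a p under 0.25. Site numbers were higher in marrow in 2 of 3 animals. Median depth over all Ugt1a sites was 184, 142.5 and 285 reads in marrow and 324, 140 and 269 in ear, a mean log2 ratio of -0.24 ± 0.50 (p = 1, exact sign-flip test, n = 3), higher in marrow in 2 of 3. Mean mapping quality was 37.1 ± 1.11 in marrow and 37.4 ± 1.43 in ear, a mean difference of -0.29 ± 0.35 (p = 0.5, exact sign-flip test, n = 3), higher in marrow in 1 of 3. The share of variant reads, averaged over sites called in both tissues, was 53.4 ± 0.891% in marrow and 52.5 ± 1.83% in ear, a mean difference of 0.85 ± 1.65 percentage points (p = 0.5, exact sign-flip test, n = 3), higher in marrow in 2 of 3. None of these 4 differences was larger than its spread between animals.

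Site by site, variant and other reads of marrow and ear were compared with Fisher's exact test at sites with at least 10 reads in each tissue, adjusted by Benjamini-Hochberg over all sites of the animal. Of 67, 167 and 87 Ugt1a sites tested in the 3 mice, 0, 1 and 0 passed at an adjusted p of 0.05, against 0.0346%, 0.0327% and 0.0181% of all sites. At an unadjusted p of 0.05, 3, 16 and 13 Ugt1a sites passed, which is 4.48%, 9.58% and 14.9% of them, against 8.41%, 7.43% and 6.22% of all sites. Before any minimum of reads, median depth per sample was 140 to 324 at Ugt1a sites and 18 to 31 over whole lists. Neighbouring sites also share reads. The part of depth and shared reads in these percentages was not tested. The site that passed, 88216494 in intron 4, had 33 of 50 variant reads in marrow and 8 of 40 in ear of animal 108, a difference of 46.0 percentage points (95% Wald interval 27.9 to 64.1; Fisher's exact test, adjusted p = 0.0492). In animal 136 the order was the opposite, with 13 of 32 reads in marrow and 18 of 29 in ear (adjusted p = 0.973, exact test), and in animal 54 it had 7 of 20 in marrow and 18 of 54 in ear. Its neighbour 88216495, covered by nearly the same number of reads, had 32 of 49 variant reads in marrow and 8 of 40 in ear of that mouse (Fisher's exact test, adjusted p = 0.0527). With Holm's adjustment neither site passed, and each such test compares 1 library with 1 library. No Ugt1a site passed a Cochran-Mantel-Haenszel test with animals as strata. That test covered only sites called in all 6 samples with at least 10 reads in each.

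Somatic calls, that is, changes a caller gave to marrow and not to ear, were present in the cluster from 1 of the 2 callers. In the members, VarScan2 listed 3, 7 and 4 somatic calls in the 3 mice, and Strelka listed 0 of its 6603. That was 14 of the 3272 VarScan2 calls (0.428%), where Ugt1a sites were 250 of the 177834 sites of the series. Somatic calls were not particular to the cluster: the adjoining Mroh2a had 22 from VarScan2 and 0 from Strelka, and Hjurp had 8 and 1. A call can count for both of these overlapping genes. The 14 calls lie at 12 positions, and 12 of the 14 are at sites that also stand in a SAMtools list of some sample. R405H and R409P of exon 4 were called somatic in animals 108 and 136. By the reads VarScan2 counted, R409P stood on 71 of 243 marrow reads and 46 of 253 ear reads of animal 108, and on 54 of 202 marrow reads and 25 of 167 ear reads of animal 136. The authors' deposited table gives somatic p-values of 0.0026 and 0.00416 for these 2 calls. R405H stood on 67 of 223 marrow reads and 44 of 233 ear reads of animal 108, and on 50 of 203 marrow reads and 26 of 165 ear reads of animal 136.

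**Figure D5:**
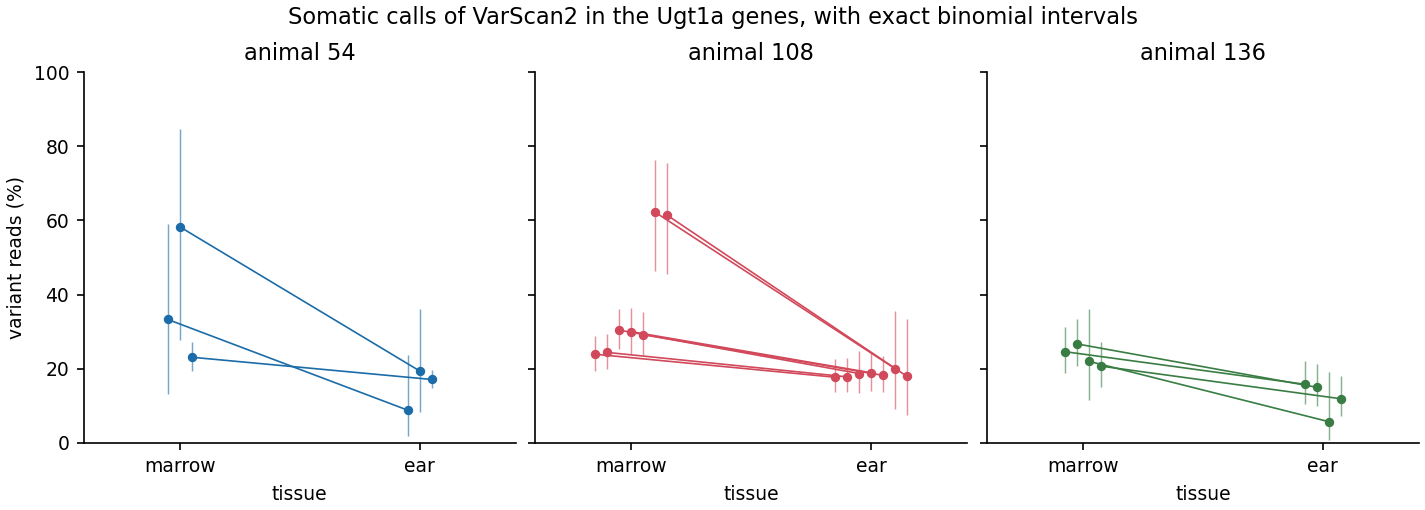
Share of variant reads (vertical axis, percent) in marrow and ear at each VarScan2 somatic call in the Ugt1a genes, with 1 panel per animal; lines join the tissues of a call and bars are exact binomial 95% intervals. Every call has variant reads in ear as well, at 5.71 to 20%, against 20.7 to 62.2% in marrow.

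None of the 14 calls was free of variant reads in ear: ear had 5.71 to 20% and marrow 20.7 to 62.2%. Their own ear list held 6 of the 14 as called sites and their own marrow list 10. The other calls were V233A and T234S of the Ugt1a6b first exon, C134T of the Ugt1a1 promoter window, and 88216494 with its neighbour 88216495 in intron 4, all in animal 108. Animal 54 had 88215307 and 88215383 in intron 2 and R525Q of exon 5, and animal 136 had an insertion or deletion at 88216474 in intron 4 and 88218538 in the 3′ untranslated region. V233A had 85 of 356 reads in marrow and 53 of 299 in ear, and T234S, in the next codon, had 84 of 344 in marrow and 51 of 286 in ear. At 5 of the 14 calls all variant reads in marrow were on 1 strand, 88216494 with 28 of 28 among them. VarScan2 gave a loss of heterozygosity at 1 of 253, 2 of 183 and 1 of 64 such calls, 4 of 500 in all (0.8%). They lay at 88224808 in animal 54, at 88216213 (P389L) and 88224927 in animal 108, and at 88215217 in animal 136. By the reads VarScan2 counted, P389L stood on 150 of 193 marrow reads and 109 of 174 ear reads of animal 108.

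Related genes were counted in the same way. Of 13 Ugt2, Ugt3 and Ugt8 genes, 9 had a called site, none had a coding one, and 2 had a site called in all 6 samples (Ugt2b35 and Ugt2b38). Of 12 genes that make or break down bilirubin or supply, export or cleave glucuronides, 11 had a called site, 5 a coding one and none a site in all 6 samples. Abcc2, the canalicular pump for conjugated bilirubin, had the most, with 4, 43 and 1 sites in the marrows and 6, 36 and 4 in the ears. Of 8 transcription factors that regulate Ugt1a genes, 7 had a called site, and 2 had one in all 6 samples. These were the nuclear receptors Nr1i2 (PXR) with 1 and Nr1i3 (CAR) with 4. Of the 5 Nr1i3 sites over all samples, 1 lay inside its transcripts, and the others were annotated as upstream or downstream only.

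Among 23330 other genes, the 5 nearest to the cluster in site number per sample, by Euclidean distance of log2(n + 1), were Gm20528 (0.191), Gm11399 (0.824), Gm12735 (0.967), Itpr1 (1.20) and C130026I21Rik (1.21). All 239 sites of Gm20528 are Ugt1a sites under another gene name. The other 4 share no site with the cluster. Gm11399 had 92, 144 and 122 sites in marrow and 123, 156 and 113 in ear.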

How the data were processed

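Genomic DNA of marrow and ear of 3 mice was enriched for exons (50 Mb, mouse) and sequenced, to a stated average of 100 reads, per the labels' protocols. Bowtie2, SAMtools and the builds GRCm38 and mm9 are named in the submitters' processing notes, without roles; settings are not stated. The authors deposited, per sample, SAMtools calls annotated with SnpEff, with counts of reads per allele and strand, and, per animal, VarScan2 and Strelka somatic calls. Percent of variant reads and somatic p-values of VarScan2 were computed by the authors and deposited. Reference bases at 2748 of 2748 called positions in RefSeq promoter windows equalled GRCm38.p6, so positions are given in that build.

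Depth is the sum of reference and variant reads as listed, and the share of variant reads is their quotient. Since PCR copies cannot be told from separate molecules, intervals cover counting error only. Exact tests were run in SciPy 1.17.1 with Python 3.11.15, and Fisher's test was tested on simulated data. Marrow and ear of an animal number come from the same animal, which pairs them; with 1 library for each tissue of a mouse, p-values per site compare 1 library with 1 library and do not measure the spread between libraries. Coding sites had median depths of 80, 94 and 68 reads in the marrows and 114, 92 and 45 in the ears of mice 54, 108 and 136.

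The members, gene lists and stretches were chosen with earlier results of these data known. Named were all members, every somatic call, sites of high or moderate impact and sites that passed Fisher's test; beyond 30, those in most samples came first, and some others are named as examples. Intron and promoter sites of the gap comparison were chosen after their values were seen. Alternatives covered annotation, depth, mapping quality, kind of variant, pairing, adjustment, caller thresholds and each animal left out; the Ugt1a1 stretch alone was added after seeing the data.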

Additional observations from a re-analysis of the deposited data

How the results depend on the processing

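Of 57 alternative values, 47 kept the direction and side of the threshold, or stayed within 1.5 times the count, 7 moved and 3 reversed. Many of the 47 could not have differed. In the paired comparisons of marrow with ear no alternative could reach a p under 0.05, so only a reversal could show. Leaving out the pairing could not reverse a difference either. The Strelka threshold could not change the somatic count, as no Strelka call lay in a member. Median depth, marrow to ear (log2 ratio -0.24), was 0.19 at sites with a mapping quality of at least 40, and -0.40 to 0.05 with each animal left out, positive without animal 54. The mapping quality difference (-0.29) was 0.059 in the Ugt1a1 stretch alone, an alternative chosen after seeing the data, and -0.439 to -0.0955 with each animal left out. With each animal left out, the log2 ratio of site numbers ranged over 0.01 to 0.10 and the difference in the share of variant reads over 0.369 to 1.81 points. Without the replicate block that pairs tissues by animal, the exact permutation p was 0.8 for site number (log2 ratio 0.04), depth and mapping quality and 0.6 for the share (0.854 points), where 3 against 3 samples cannot give a p under 0.1. The 1 Ugt1a site that passed Fisher's test became 2 with at least 20 reads in each tissue, and 0 with Holm's adjustment. The count was 0 with the Cochran-Mantel-Haenszel test and, without the replicate block, on reads summed over animals, both at sites in all 6 samples. With each animal left out the count was 0 to 1, and 0 without animal 108. Somatic calls, 14 in all, were 7 at a VarScan2 p under 0.01 and 7 to 11 with each animal left out, 7 without animal 108. Sites called in all 3 animals, 87, were 60 if called in both tissues. With each animal left out, 90 to 96 sites were called in all remaining animals. Such a count cannot fall below 87, so these values, which are among the 47, could not have shown a loss. The cause of these changes was not tested. Depth limits the sites beyond the cluster's end, where medians were 18 to 67 reads.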
